A study of Mus musculus with 10 samples.

Results

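The COMMD genes were followed in thymus RNA of mice with 1 or both alleles of Usp7 knocked out. The family was taken as the rows of the deposited count table whose Ensembl identifiers pair with the symbols Commd1 to Commd10, which gave 10 of 35375 features, and all 10 passed the low-count filter that left 19511 features for testing. Commd10 was selected on these same measurements, because it was higher in both knock-outs by a similar amount, and so its values are given as a description with no test. The other 9 members were included for their membership of the family.

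The COMMD proteins share a carboxy-terminal COMM domain, through which they pair with each other. In the cell the members assemble into a ring that joins the coiled-coil proteins Ccdc22 and Ccdc93 and the Retriever trimer in the Commander complex, which returns membrane receptors from endosomes to the cell surface. COMMD1, the founding member, is also known for restraining NF-κB by promoting the ubiquitination of RelA and for its part in copper export. Usp7 encodes a ubiquitin-specific protease that removes ubiquitin from many nuclear proteins.

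Total RNA depleted of ribosomal RNA was sequenced from whole thymus of C57BL/6J mice 3 days after birth. The homozygous knock-out (n = 3) lacked Usp7 on both alleles in the hematopoietic system, the heterozygous knock-out (n = 3) on 1 allele, and 4 wild types served as controls. The series description says that 2 of the wild types had Cre and 2 had none, but the library labels do not say which, and they name neither the Cre line nor its promoter. The deletion is labelled as hematopoietic, so whole thymus also held host epithelium and stroma outside the labelled deletion. Each library came from its own numbered animal.

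Total counts were 92261908 to 122380785 in the homozygous libraries, 90479962 to 97407789 in the heterozygous libraries and 39833850 to 86366734 in the wild types. Levels are CPM, that is, counts divided by the TMM-scaled library size, and 3 counts corresponded to 0.0245 to 0.0753 CPM. Usp7 read 303, 422 and 408 CPM in the homozygous libraries, 472, 516 and 516 CPM in the heterozygous libraries and 676, 670.3, 594 and 589 CPM in the wild types, so the 3 groups did not overlap. The fitted log2 difference was -0.74 (SE 0.11, edgeR adjusted p = 5.2e-04) in the homozygous knock-out and -0.34 (SE 0.11, adjusted p = 0.608) in the heterozygous knock-out. All 9 thymocyte markers were detected, with summed levels of 8483 to 8887 CPM in homozygous, 10031 to 10785 CPM in heterozygous and 10287 to 11562 CPM in wild-type libraries. Rag1 was the largest single part of these sums, at 3328 to 3639 CPM in homozygous and 5656 to 6622 CPM in wild-type libraries. Of the other markers, Cd8a and Lck were called higher in the homozygous knock-out, and Dntt and Cd1d1 lower. The sum therefore does not give a direction shared by the markers.

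Commd10, whose product has been linked to NF-κB and to lysosome function in macrophages, stood apart from the rest of the family. It read 15.8, 17.0, 14.6 and 17.2 CPM in the wild types, 43.0, 44.8 and 46.4 CPM in the heterozygous knock-out and 44.4, 42.2 and 43.8 CPM in the homozygous knock-out. Every knock-out library lay above every wild type, and the heterozygous and homozygous libraries overlapped. The wild types averaged 16.1 ± 1.24 CPM (SD, n = 4). The heterozygous libraries averaged 44.7 ± 1.70 CPM and the homozygous libraries 43.5 ± 1.17 CPM (SD, n = 3 each).

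The fitted log2 difference of Commd10 from wild type was 1.47 (SE 0.07) in the heterozygous knock-out and 1.43 (SE 0.07) in the homozygous knock-out, which is 2.77-fold and 2.69-fold. Between both knock-outs it was -0.04, with a 95% interval from -0.21 to 0.13. The lowest raw count behind these values was 642 reads, in wild type 1. These tissues were measured in bulk, so a change in the share of cells of a type and a change in RNA per cell cannot be told apart.

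Among 10461 features with an average of at least 2 on the log2 CPM scale, 60 others had a log2 difference at least as large as that of Commd10 in the homozygous knock-out, and in 54 of these every homozygous library exceeded every wild type. In the heterozygous knock-out 2 others did, and in 0 of these did the groups separate. These counts describe the rank of a gene chosen for its rise. Both comparisons use the same 4 wild types.

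Within animals numbered 44 to 51, the log2 difference of mean Commd10 levels was 1.49 for the homozygous knock-out (1 library against 3 wild types) and 1.45 for the heterozygous knock-out (1 against 3). Within animals 56 to 63 it was 1.32 (2 against 1) and 1.40 (2 against 1). The animal numbers are those in the library titles, and the labels do not call them litters or batches.

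The RefSeq gene table (GRCm38.p6) lists the Vav1-iCre transgene, an allele used to express Cre recombinase in blood cells, among the synonyms of Commd10. A transgene synonym stood beside 32 of 49997 RefSeq genes and beside no other COMMD gene. The 4 wild types, of which the series describes 2 as having Cre, read 14.6 to 17.2 CPM Commd10. The lowest knock-out library read 42.2 CPM. Whether the knock-outs carry that transgene, and whether the wild types with Cre carry the same allele, is not given by the labels, and its part in the level of Commd10 was not tested. In the GENCODE vM21 annotation Commd10 (ENSMUSG00000042705) also overlaps 5 other annotated genes, of which 1, the miRNA gene Gm25036, is in the count table. How reads in overlapping genes were shared out was not given in the sources used here.

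**Figure D1:**
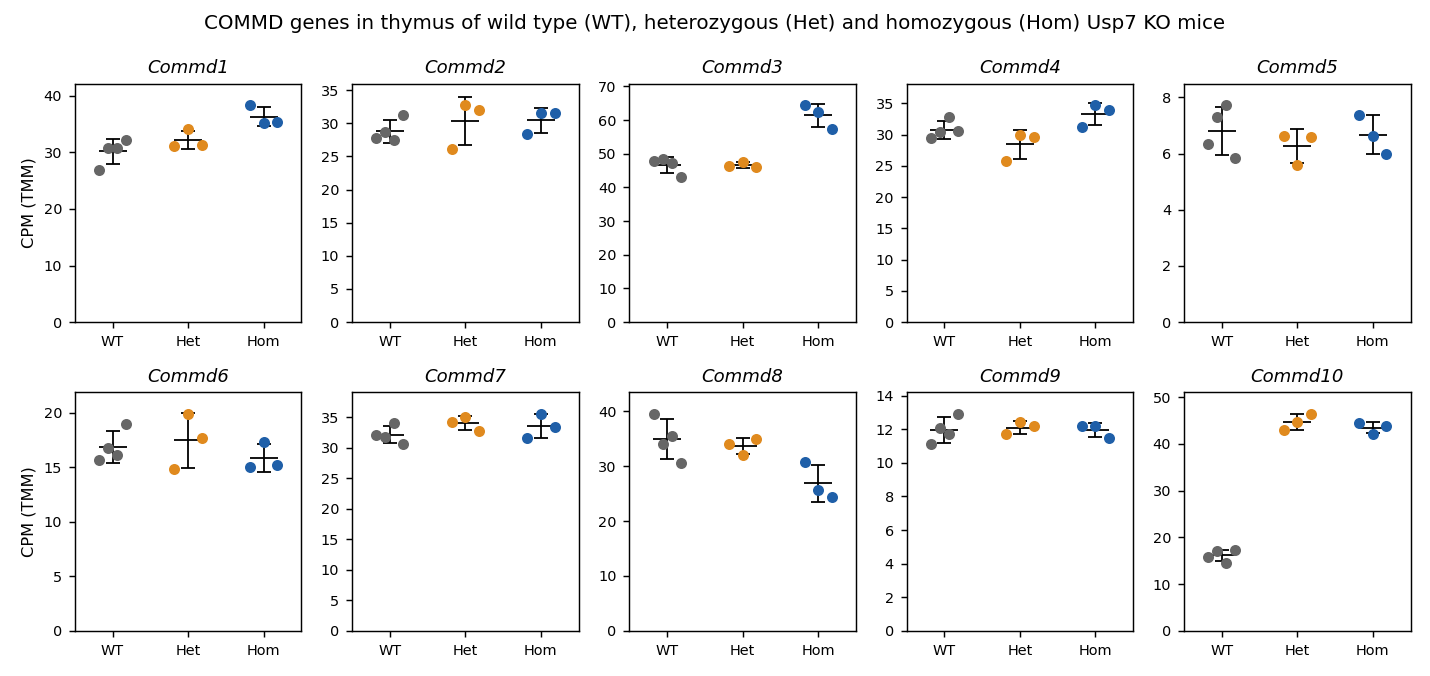
Level of each COMMD gene (vertical axes, TMM-scaled CPM, starting at 0, a different scale in each panel) in wild type (WT, n = 4), heterozygous (Het, n = 3) and homozygous (Hom, n = 3) Usp7 knock-out thymus. Points are libraries, bars the mean and SD; Commd10 lies between 14.6 and 17.2 CPM in wild type and between 42.2 and 46.4 CPM in all 6 knock-out libraries.

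The rise of Commd10 changed its place within the family. It made up 6.33% ± 0.510 (SD, n = 4) of all COMMD CPM in wild type, 15.6% ± 0.393 (SD, n = 3) in the heterozygous knock-out and 14.5% ± 0.542 (SD, n = 3) in the homozygous knock-out. The sum over the other 9 members was 239 ± 3.40 CPM in wild type, 241 ± 9.32 CPM in the heterozygous knock-out and 256 ± 6.56 CPM in the homozygous knock-out. The sum over all 10 members was 255 ± 2.83, 286 ± 10.6 and 299.8 ± 6.20 CPM in the same order. In the heterozygous knock-out, the lowest sum of the other 9 members was 231 CPM and the highest 249 CPM, a range that enclosed the wild types at 236 to 243 CPM.

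**Figure D2:**
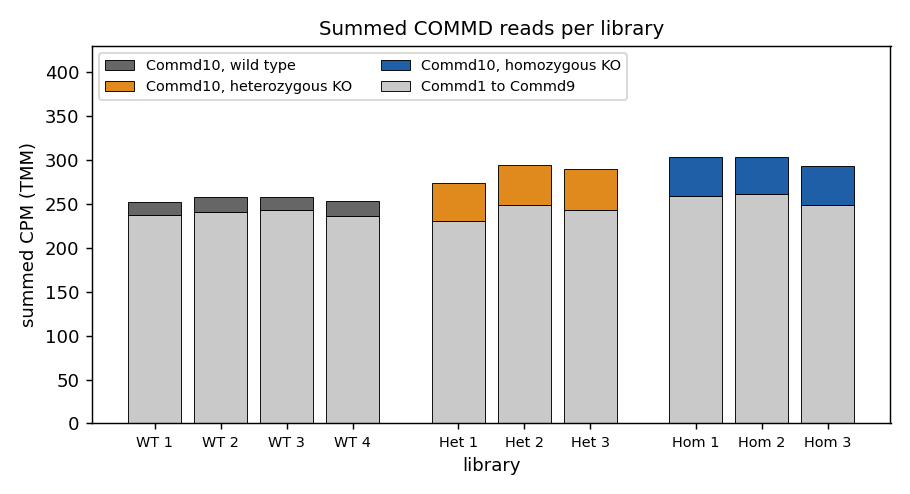
Summed COMMD level per library (vertical axis, TMM-scaled CPM) for wild type (WT 1 to 4), heterozygous (Het 1 to 3) and homozygous (Hom 1 to 3) knock-out libraries. Grey is the sum of Commd1 to Commd9 and the coloured top is Commd10, which fills 5.65 to 6.80% of the bar in wild types and 13.9 to 16% in knock-outs.

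Levels were compared between members per kilobase of each gene's longest coding transcript in GENCODE vM21. In wild type Commd3 led at 49.8 ± 2.64 CPM per kilobase (SD, n = 4), followed by Commd4 at 35.9 ± 1.67 and Commd6 at 15.5 ± 1.37. Commd10, Commd9 and Commd7 each averaged 10 CPM per kilobase, Commd2 averaged 9.62 and Commd8 averaged 8.97. Those 5 overlapped in their libraries and cannot be ordered. Commd1 at 6.69 ± 0.497 and Commd5 at 6.57 ± 0.826 CPM per kilobase were lowest and also overlapped.

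In the knock-outs Commd10 moved to rank 3 of 10, at 27.8 ± 1.05 CPM per kilobase in the heterozygous and 27.0 ± 0.729 in the homozygous libraries, above Commd6 at 16.1 ± 2.26 and 14.5 ± 1.17. The order depended on the length used. Divided by the total length of all annotated exons, Commd10 ranked 10 of 10 in wild type, 7 in the heterozygous and 8 in the homozygous knock-out.

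In the homozygous knock-out, 3 of the 9 other members passed an adjusted p of 0.05 (edgeR quasi-likelihood test over all features), against 25.8% of all features tested. Commd1 and Commd3 rose, where 12.5% of all features were higher, and Commd8 fell, where 13.2% were lower. The median log2 difference of the 9 members was 0.06, against -0.01 over all features. The remaining 6 members were not called, with fitted folds between 0.935 and 1.08.

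Commd3 read 64.4, 62.3 and 57.5 CPM in the homozygous libraries, 46.5, 47.7 and 46.0 CPM in the heterozygous libraries and 48, 48.5, 47.3 and 43.1 CPM in the wild types. All 3 homozygous libraries were above all others, and the heterozygous libraries lay among the wild types. The log2 difference was 0.40 (SE 0.06, edgeR adjusted p = 8.9e-04) from wild type and 0.39 (SE 0.07, edgeR adjusted p = 0.00196) from the heterozygous knock-out. A two-sided exact permutation test of the log2 CPM against wild type gave p = 0.0286, the smallest that 35 splits allow. Both calls held in every alternative tried, and within animals 44 to 51 and 56 to 63 the difference of means from wild type was 0.43 and 0.48.

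Commd8, whose product is known to pair with that of Commd3 in a complex that supports chemoattractant receptor signalling in B cells, moved the other way. It read 30.7, 25.7 and 24.3 CPM in the homozygous libraries, 34.0, 32.0 and 35.0 CPM in the heterozygous libraries and 39.5, 34.1, 35.5 and 30.6 CPM in the wild types. The groups overlapped, since homozygous library 1 and wild type 4 read almost the same. The log2 difference from wild type was -0.38 (SE 0.10), which passed over all features (edgeR adjusted p = 0.0182). A two-sided exact permutation test of the log2 CPM gave p = 0.0857. The edgeR call was lost without homozygous library 2 (edgeR adjusted p = 0.0734) or 3 (edgeR adjusted p = 0.0831). Against the heterozygous knock-out the difference was -0.32 (SE 0.11, edgeR adjusted p = 0.0611), with no overlap. That difference passed without homozygous library 1 (edgeR adjusted p = 0.0136) or wild type 4 (edgeR adjusted p = 0.0424).

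Commd1 read 38.3, 35.2 and 35.4 CPM in the homozygous libraries, 31.2, 34.1 and 31.3 CPM in the heterozygous libraries and 26.9, 30.8, 30.7 and 32.2 CPM in the wild types. The homozygous libraries were the 3 highest of the 10. The log2 difference from wild type was 0.27 (SE 0.07, edgeR adjusted p = 0.0217; two-sided exact permutation p = 0.0286), or 1.20-fold. The call was lost without homozygous library 1 (edgeR adjusted p = 0.0769) and with scaling by library totals (0.17, edgeR adjusted p = 0.0996). The Commd1 locus overlaps Zrsr1 on the opposite strand, which is also in the count table.

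Commd4 was not called in any comparison, although its homozygous libraries (31.3, 34.7 and 34.0 CPM) all exceeded its heterozygous ones (25.8, 29.9 and 29.7 CPM). That difference was 0.23 (SE 0.08, edgeR adjusted p = 0.0752). Its wild types read 29.4, 30.4, 32.8 and 30.6 CPM and overlapped both. Commd4, Commd8, Commd1 and Commd3 were the 4 of 9 members with no overlap between homozygous and heterozygous knock-outs, where 33.3% of all features had none. Commd3 alone was called there, 1 of 9 members where 17.1% of all features were called (7.63% higher and 9.50% lower).

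The other members moved little. Commd2 spanned 26.1 to 32.7 CPM over the 10 libraries, Commd7, another member linked to NF-κB, 30.6 to 35.5 CPM and Commd9, which has been tied to Notch receptor recycling, 11.1 to 12.9 CPM. Commd6, the shortest member of the family, spanned 14.9 to 19.9 CPM. Commd5, which was first described as a calcium-regulated gene in hypertension, was lowest at 5.59 to 7.72 CPM. For each of these 5 genes the 3 groups overlapped.

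In the heterozygous knock-out 0 of the 9 other members were called by edgeR, and 0 had an unadjusted p under 0.05. The background was also close to none, at 0.0154% of all features called. An unadjusted p under 0.05 was reached by 1421 of all 19511 features. DESeq2 called 0 of the 9 as well, and its share over all features is not given here. The fitted folds of the 9 members lay between 0.921 and 1.07, and the widest 95% bounds were 0.750 (Commd5) and 1.22 (Commd6), so a change of the size seen in Commd10 lay outside the interval of each. For 0 of the 9 did the heterozygous and wild-type libraries separate, where 8.69% of all features did.

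**Figure D3:**
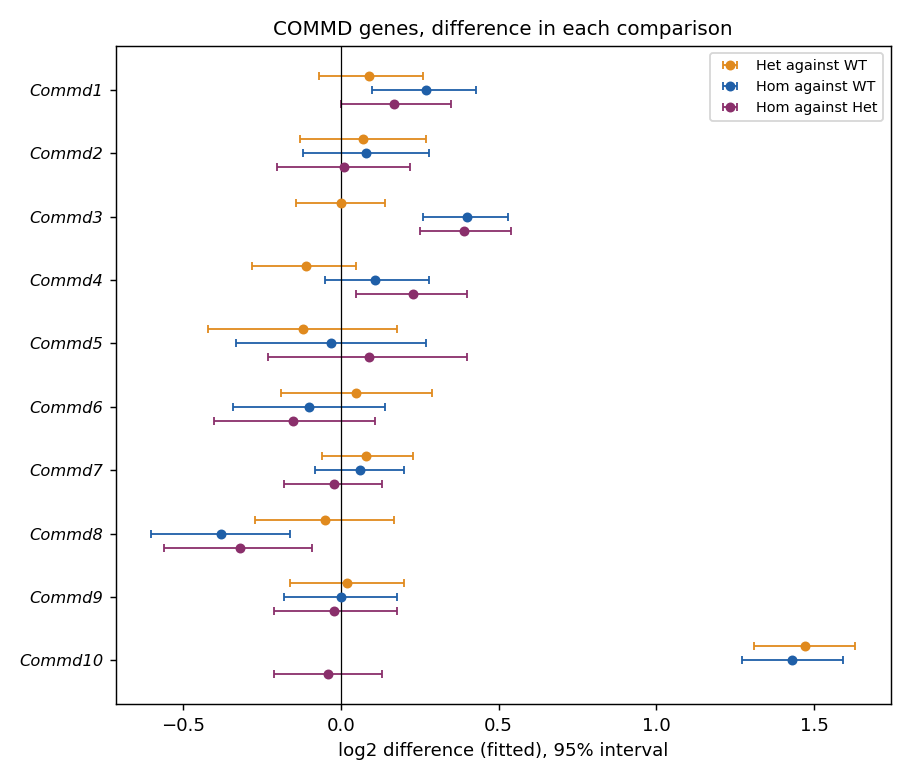
Fitted log2 differences of the 10 COMMD genes (horizontal axis) with 95% intervals for heterozygous against wild type (n = 3 and 4), homozygous against wild type (n = 3 and 4) and homozygous against heterozygous (n = 3 each). Commd10 sits at 1.47 and 1.43 from wild type and near 0 between the knock-outs, whereas Commd3 differs from both other groups only in the homozygous knock-out, by 0.40 and 0.39.

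Markers of some cell types differed in the homozygous knock-out. All 4 B-cell markers fell, from a summed 28.8 to 45.8 CPM in wild type and 25.8 to 28.2 CPM in the heterozygous knock-out to 6.28 to 8.91 CPM. Of the 9 thymocyte markers 2 rose and 3 fell, of 6 myeloid markers 2 rose and 2 fell, and of 4 fibroblast markers 2 rose. Of 5 thymic epithelium markers 1 rose, and 0 of 5 erythroid and 0 of 3 endothelial markers were called. Together 16 of the 36 markers were called by edgeR, where 25.8% of all features were (12.5% higher and 13.2% lower). Summed myeloid markers reached 54.5 to 210.3 CPM in homozygous against 57.7 to 69.2 CPM in wild-type libraries. Fibroblast markers reached 5.87 to 18 against 2.23 to 7.08 CPM and epithelial markers 42.6 to 116 against 40.1 to 59.4 CPM. The part of these shifts in the changes of Commd1, Commd3 and Commd8 was not tested. Of the 36 markers edgeR called 0 in the heterozygous knock-out, where it called 0.0154% of all features. There 1 of the 36, Cd1d1, had an unadjusted p under 0.05, as had 1421 of all 19511 features. The summed B-cell markers of that group also lay below all wild types.

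Genes around Commd10 on chromosome 18 were taken by position, 5 tested genes on each side in the order of the reference annotation. Its nearest tested neighbours are Ap3s1, a subunit of the AP-3 adaptor that sorts proteins to lysosomes, on one side and Sema6a, a transmembrane semaphorin, on the other. In the homozygous knock-out 3 of the 10 neighbours rose, Ap3s1, Sema6a and Atg12, where 12.5% of all features were higher, and 0 fell. In the heterozygous knock-out edgeR called 0 of 10, where 0.0154% of all features were called. There 2 of 10 had an unadjusted p under 0.05, as had 1421 of all 19511 features. Between the knock-outs 1 of 10, Ap3s1, was called, where 17.1% of all features were. Without homozygous library 2 or heterozygous library 1, 2 of 10 were called there.

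Ap3s1 read 239, 229 and 221 CPM in the homozygous libraries, 173, 178 and 186 CPM in the heterozygous libraries and 168, 162, 136 and 148 CPM in the wild types. The 3 groups did not overlap. The log2 difference from wild type was 0.58 (SE 0.07, edgeR adjusted p = 1.5e-04) in the homozygous and 0.22 (SE 0.07, edgeR adjusted p = 0.608) in the heterozygous knock-out. Between the knock-outs it was 0.36 (SE 0.07, edgeR adjusted p = 0.00702). Commd10 showed no such step between the knock-outs.

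Sema6a was expressed at a low level. It read 0.590, 0.998 and 1.22 CPM in the homozygous libraries, 1.65, 0.911 and 0.991 CPM in the heterozygous libraries and 0.368, 0.457, 0.416 and 0.447 CPM in the wild types, on 15 to 165 raw reads. Both knock-outs lay above all wild types and overlapped each other. The log2 difference was 1.14 (SE 0.31, edgeR adjusted p = 0.0202) in the homozygous knock-out and 1.48 (SE 0.31, edgeR adjusted p = 0.493) in the heterozygous knock-out, where DESeq2 gave 1.49 with an adjusted p of 0.0161. The homozygous call was lost without homozygous library 2 (edgeR adjusted p = 0.0554), homozygous library 3 (edgeR adjusted p = 0.0827) or wild type 1 (edgeR adjusted p = 0.0515).

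Atg12, a ubiquitin-like protein of autophagy, differed by 0.28 (SE 0.06, edgeR adjusted p = 0.00546) in the homozygous and by 0.09 (SE 0.06, edgeR adjusted p = 0.799) in the heterozygous knock-out. The farther neighbours Tmed7, Eif1a, Cdo1, Dtwd2, Gm16283 and Dmxl1 were not called in any comparison. Eno1b, also not called, varied widely within groups, at 0.278, 48.2 and 19.5 CPM in homozygous, 16.6, 35.8 and 32.9 CPM in heterozygous and 0.467, 21.6, 0.529 and 18.5 CPM in wild-type libraries. Over the whole of chromosome 18, 100 of 399 tested genes (25.1%) were called in the homozygous knock-out, close to the 25.8% of all features, with a median log2 difference of 0.04.

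**Figure D4:**
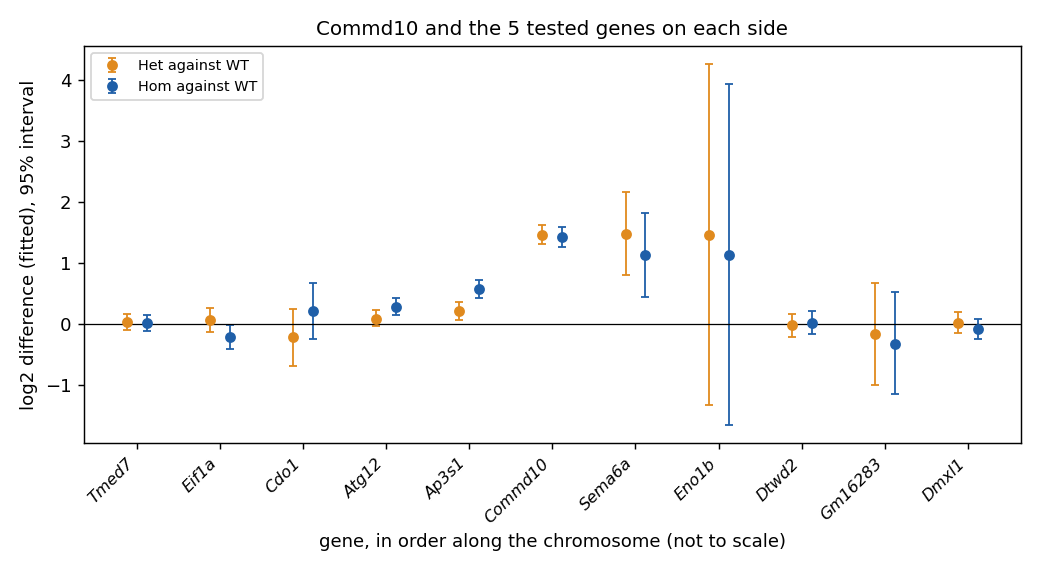
Fitted log2 differences with 95% intervals (vertical axis) of Commd10 and the 5 tested genes on each side, in their order on chromosome 18 (not to scale), for heterozygous (n = 3) and homozygous (n = 3) knock-outs against wild type (n = 4). Commd10 and Sema6a are raised in both comparisons, Ap3s1 more in the homozygous (0.58) than in the heterozygous (0.22), and the intervals of Eno1b are the widest.

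The genes whose log2 CPM followed Commd10 most closely over the 10 libraries were Pfdn1 (Pearson r = 0.965), Manf (0.964), Zadh2 (0.954), Gm11478 (0.946) and Ndufa6 (0.940), among 10154 candidates. These are descriptive, as the libraries share their group means. Their differences were far smaller than that of Commd10, since Pfdn1 rose from 18.2 to 19.6 CPM in wild types to 21.2 to 22.7 CPM in knock-outs, and Zadh2 from 21.6 to 24.8 CPM to 28.0 to 30.5 CPM. Pfdn1 and Zadh2 lie on chromosome 18, which carried 238 (2.34%) of the candidates. Pfdn1 is 68 tested genes before Commd10 and Zadh2 is 162 after it.

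The other Commander subunits and working partners moved little, with log2 differences from wild type no larger than 0.26 in size in the homozygous knock-out. Of 19 genes listed, 18 passed the filter. Ccdc22, which encodes a core subunit, was listed at 0 in all 10 libraries. Whether reads could be assigned to its identifier was not tested, so this value was not read as absent expression. In the homozygous knock-out 2 of 18 (11.1%) were called, against 25.8% of all features, with a median log2 difference of 0.09. In the heterozygous knock-out edgeR called 0 of 18, where it called 0.0154% of all features. DESeq2 also called 0 of 18 there, and its share over all features is not given here. An unadjusted p under 0.05 (edgeR) was reached by 2 of the 18 and by 1421 of all 19511 features.

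Washc4, a subunit of the WASH complex that builds actin on endosomes, fell in the homozygous knock-out. It read 87.5, 85.7 and 84.4 CPM there against 95.2 to 112 CPM in wild type, with no overlap (log2 difference -0.26, SE 0.06, edgeR adjusted p = 0.00938). Vps26b, a Retromer subunit, rose from 117, 118, 125 and 120.0 CPM to 134, 138 and 136 CPM (0.18, SE 0.05, edgeR adjusted p = 0.0156). Without homozygous library 2 the latter call was lost (edgeR adjusted p = 0.0507). Ccdc93, the partner of Ccdc22, was higher in the homozygous (129, 139.6 and 138 CPM) than in the heterozygous knock-out (117, 109 and 115 CPM), by 0.25 (SE 0.06, edgeR adjusted p = 0.0134), and this call was lost without heterozygous library 2 (edgeR adjusted p = 0.0579). The Retriever genes Vps35l, Vps26c and Vps29 were not called in any comparison.

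Genes whose products COMMD proteins act on or with formed a list of 28, all tested. In the homozygous knock-out 9 (32.1%) were called, near the 25.8% of all features. Of these 5 were higher, where 12.5% of all features were, and 4 lower, where 13.2% were, and the median log2 difference was 0.05. In the heterozygous knock-out edgeR called 0, where it called 0.0154% of all features. An unadjusted p under 0.05 was reached by 2 of the 28 genes and by 1421 of all 19511 features. The cargo genes held 3 of the falls. Itga4, the integrin α4 chain, read 106, 65.7 and 87.2 CPM in homozygous, 281, 228 and 237 CPM in heterozygous and 318, 329, 280.5 and 254 CPM in wild-type libraries. Only the homozygous libraries lay apart, by -1.78 (SE 0.15, edgeR adjusted p = 1.6e-05) from wild type. Itgb2, the leukocyte integrin β2 chain, fell by 0.41 on the log2 scale (edgeR adjusted p = 0.00684). The chloride cotransporter gene Slc12a2 fell by 0.73 (edgeR adjusted p = 0.0472). That call was lost in 8 of the 10 fits that left out 1 library, all but those without wild type 1 or 2 (edgeR adjusted p 0.0530 to 0.130). Slc12a2 read 7.64, 6.68 and 7.12 CPM in homozygous libraries and 8.50, 7.99, 13.6 and 17.2 CPM in wild types. Against only wild types 1 and 2 its log2 difference was -0.21 (edgeR adjusted p = 0.379). Its heterozygous libraries, at 17.6, 24.0 and 17.6 CPM, lay above all wild types (log2 difference 0.73, edgeR adjusted p = 0.608).

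Within the NF-κB arm, the inhibitor gene Nfkbie rose from 51.2, 51.6, 64.8 and 67.0 CPM to 84.7, 99.4 and 94.2 CPM (0.66, SE 0.11, edgeR adjusted p = 0.00128). Relb fell by 0.81 on the log2 scale (SE 0.21, edgeR adjusted p = 0.0166), a call lost without homozygous library 1 (edgeR adjusted p = 0.0526). Rela, the NF-κB subunit that COMMD1 targets, read 75.5 to 86.4 CPM in the homozygous and 74.0 to 82.9 CPM in the wild-type libraries (0.05, SE 0.06, edgeR adjusted p = 0.590). Among the ubiquitin ligase genes 4 of 10 were higher, against 12.5% of all features, and 0 lower; the calls of 3 of these 4 were lost in some fits. Elob, the elongin B adaptor, led with 105, 96.9 and 103 CPM against 68.1, 76.2, 74.3 and 77.5 CPM (0.45, SE 0.06, edgeR adjusted p = 3.3e-04).

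Eloc (0.25, edgeR adjusted p = 0.0250) and Cul3 (0.18, edgeR adjusted p = 0.0290) were also higher in the homozygous knock-out. The call of Eloc was lost without homozygous library 1 or wild types 3 or 4 (edgeR adjusted p 0.0535 to 0.0950). That of Cul3 was lost without homozygous libraries 1 or 2 or wild types 2 or 3 (edgeR adjusted p 0.0522 to 0.104). Cul1, the remaining ligase gene called (0.17, edgeR adjusted p = 0.0268), lost its call without homozygous library 1 or wild types 1 or 3 (edgeR adjusted p 0.0622 to 0.106). Without homozygous library 1 or wild type 3, 5 of the 28 genes were called in place of 9. B-cell markers fell in the same libraries, and their part in the falls of Itga4, Itgb2 and Relb was not tested.

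Between the knock-outs 6 of the 28 genes (21.4%) were called, against 17.1% of all features. Nfkbie (0.56, edgeR adjusted p = 0.00711) and Elob (0.32, edgeR adjusted p = 0.00587) were higher in the homozygous knock-out. Itga4 (-1.53, edgeR adjusted p = 8.5e-05), Slc12a2 (-1.46, edgeR adjusted p = 0.00277), Relb (-0.83, edgeR adjusted p = 0.0262) and Itgb2 (-0.30, edgeR adjusted p = 0.0488) were lower. The call of Relb was lost without homozygous libraries 1 or 3 or heterozygous libraries 2 or 3 (edgeR adjusted p 0.0563 to 0.0967). That of Itgb2 was lost in 7 of 10 such fits, all but those without homozygous library 2 or wild types 3 or 4 (edgeR adjusted p 0.0627 to 0.165).

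**Figure D5:**
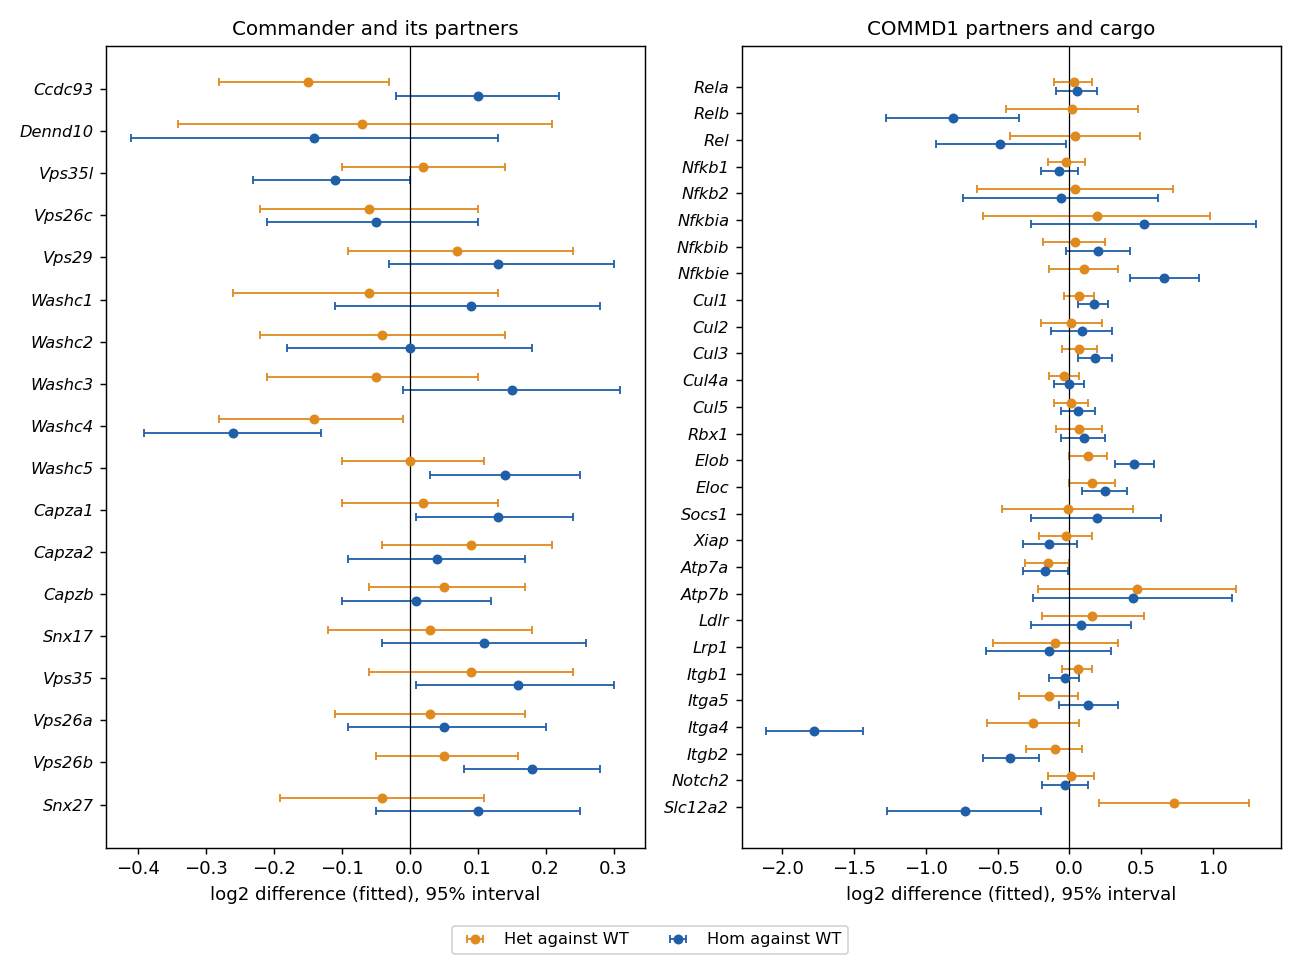
Fitted log2 differences with 95% intervals (horizontal axes, different scales) of the 18 tested Commander genes and the 28 COMMD1 partner and cargo genes, for heterozygous (n = 3) and homozygous (n = 3) knock-outs against wild type (n = 4). The largest shift is Itga4 at -1.78 in the homozygous knock-out, and no Commander gene moves by more than 0.26 in that comparison.

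Promoter sequence from RefSeq (GRCm38.p6, 250 bases before to 50 after the start) was held for 7 of the 10 members, Commd1, Commd3, Commd4, Commd6, Commd7, Commd8 and Commd9. The letters CACGTG, a palindromic form of the E-box and here called the core, were searched in each. The same letters read on both strands. Other forms of the E-box were not searched. The results below concern the letters CACGTG only. These letters occurred in 3 of the 7 COMMD promoters (42.9%) and in the promoters of 2187 of 27025 genes (8.09%). Commd3 held the core 8 bases before the start (chr2:18672415-18672444, plus strand) and Commd9 held it 10 bases before (chr2:101886240-101886269, plus strand). Commd8 held it 26 bases before the start (chr5:72168198-72168227, minus strand) and again 16 bases after it (chr5:72168156-72168185, minus strand). The windows are shown 5′ to 3′ because the COMMD pair that moved in opposite directions shares this core, which is in capitals.
Commd3: cgcgccccgagtCACGTGgtgtgcgtgtcg
Commd8, before the start: cctccagaaagtCACGTGgacgaatcggag
Commd8, after the start: gttcaggcctgtCACGTGacaggtatctct
Commd9: tgctccggctgtCACGTGactccagaaaga
Of these genes, Commd3 rose and Commd8 fell in the homozygous knock-out, and Commd9 was not called (log2 difference 0.00, SE 0.08). Commd1, which rose as well, had no such letters in its window. Commd2, Commd5 and Commd10 were not searched.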

How the data were processed

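The deposited values are raw gene counts for 10 mouse thymus libraries. Per the labels the authors used a stranded, ribosome-depleted kit, and the submitters' processing notes name CASAVA, STAR 2.4.1d, HTSeq 0.6.1p1 and the builds mm9 and NCBIM37. The strand setting was not given in the sources used here. Columns were matched to libraries by the names in their titles; those of wild types 3 and 4 carry an extra "het" word, and the title's group was kept. The table has 35375 features (34467 with Ensembl identifiers, 30204 paired with a symbol). The 908 other names, 1.74 to 2.29% of counts, stayed in the library sizes.

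Counts were fitted with edgeR 4.0.16 (R 4.3.3; filterByExpr, TMM, quasi-likelihood test, Benjamini-Hochberg over 19511 features), all 10 libraries in 1 fit by group. On data simulated for the homozygous comparison (19511 features), 66 of 66 features changed 4-fold were recovered. The largest change among Commd1 to Commd9 in that comparison was 1.32-fold, and recovery at that size is not given here. Exact permutation tests are two-sided and use log2 CPM. DESeq2 1.42.0, other scalings and filters, left-out libraries, blocks, a term for Xist (over 100 CPM in 4 libraries) and subsets of the wild types were alternatives. The libraries over that Xist level were homozygous library 3 and wild types 2, 3 and 4. All heterozygous libraries were under it, so the Xist split was uneven across the groups. Library pairs within a group differed beyond sampling noise (chi-square per degree of freedom 13.5 to 116). Intervals and floors cover counting error only where they rest on counts.

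Named genes were all members, Usp7, the neighbours, up to 4 called genes per direction, list and comparison, and the 5 most correlated with Commd10; Ccdc22, Rela, Cul1, Cd1d1 and the Retriever genes were added after their values were seen. The members and lists were chosen with earlier results of these data known. The reference annotation (GENCODE vM21, another build) was used for names, order, overlaps and lengths only.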

Additional observations from a re-analysis of the deposited data

How the results depend on the processing

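Commd10 kept its direction and size in the knock-outs against wild type under every alternative, at 1.34 to 1.46 (homozygous) and 1.42 to 1.51 (heterozygous) on the log2 scale; the largest shifts came with library totals as the scale, which gave 1.34 from wild type and -0.13 between the knock-outs and moved the median of all features in the homozygous comparison from -0.01 to -0.11. The calls of Commd3 held throughout, at edgeR or DESeq2 adjusted p of at most 0.00939 from wild type and 0.0131 between the knock-outs. The calls of Commd1 and Commd8 were lost against only the wild types with 1 wt in their title (edgeR adjusted p = 0.138 and 0.133), which left 1 of the 9 members and 0 Commander genes called. Dividing by total exon length changed the rank of Commd10 in wild type from 4 to 10, and dividing by the longest coding transcript changed its share of the family to 13.7% in the homozygous knock-out; the cause of the other changes was not tested.

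Between the knock-outs, 2 of the 9 members were called with library totals or with a filter of 1 CPM in 3 libraries, and 3 with DESeq2 or a block for animal number; the added ones were Commd8 and, for the latter pair, Commd4. Neighbours of Commd10 called there numbered 2 with library totals and 3 with DESeq2 or the animal-number block, and DESeq2 called 1 neighbour, Sema6a, in the heterozygous knock-out. In the homozygous knock-out against wild type, the animal-number block gave 4 Commander genes, the Xist term 4 partner genes, and the wild types with 2 wt in their title 4 partner genes and 1 neighbour. Leaving out each library in turn gave 2 to 3 members, 1 to 3 Commander genes, 5 to 9 partner genes and 2 to 3 neighbours from wild type, and 1 to 2 members, 0 to 1 Commander genes and 1 to 2 neighbours between the knock-outs. No share of all features called is given for the alternative fits, including those without 1 library, so these counts have no background beside them.

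Replicate numbers are shared between groups, and the deviations of same-numbered libraries correlated at 0.189 to 0.328 for number 1 but at -0.186 to 0.175 for numbers 2 and 3, so the numbers were not taken to pair the libraries; 2 of 9 libraries correlated best with their own number. With a replicate block 2 members, Commd3 and Commd8, were called between the knock-outs (Commd8 -0.33, edgeR adjusted p = 0.0269), and 3 members from wild type in the homozygous knock-out; Sema6a lost its call there (edgeR adjusted p = 0.0619).

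Sign changes occurred in 22 fits, all of members near 0 that were not called. With library totals, Commd2 was at -0.01 and Commd7 at -0.03 in the homozygous knock-out from wild type, and Commd2 at -0.08 between the knock-outs; Commd2 was there also at -0.01 without a low-count filter and -0.02 with the Xist term. The animal-number block gave 0.06 for Commd5 (homozygous) and -0.02, -0.05, 0.03 and -0.01 for Commd2, Commd6, Commd8 and Commd9 (heterozygous), and the wild types with 1 wt gave 0.03 for Commd8 and -0.02 for Commd9. Leaving out 1 library moved Commd5 from -0.11 to 0.05 in the homozygous knock-out. In the heterozygous one it moved Commd6 from -0.05 to 0.16, Commd8 from -0.11 to 0.01 and Commd9 from -0.01 to 0.06, and between the knock-outs Commd2 from -0.09 to 0.07, Commd7 from -0.07 to 0.01 and Commd9 from -0.05 to 0.01. Depth limits mainly Sema6a, with 15 to 37 reads in the wild types.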

Other observations

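Among the 50 genes most correlated with Commd10 over the 10 libraries (r of at least 0.857), 4 (8.0%) were on chromosome 18, against 2.34% of the candidates. Beside Pfdn1 and Zadh2 these were Gm10269 (log2 difference 0.47 in the homozygous and 0.50 in the heterozygous knock-out) and Cyb5a (1.23 and 0.91). The 50 genes were picked for following Commd10, itself chosen for its rise, so this share is a description with no test. Those on chromosome 18 were singled out after their values were seen, and Cyb5a lies 166 tested genes after Commd10.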
